A study of Mus musculus with 6 samples.

Results

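Interferon response genes were examined as a set of 36 genes picked by name: the receptors of type I interferon, the transcription factors and nucleic acid sensors of the response, and the genes it induces. All 36 were found by symbol among the 55471 Ensembl identifiers of the expression table. The samples were endosteal mesenchymal stromal cells, the stromal cells of the inner bone surface, from C57BL/6J mice. The 3 libraries labelled Bap1 WT carried the floxed allele alone (Bap1fl/fl), and the 3 labelled Bap1 cKO carried it together with Cre under the limb mesenchyme promoter Prx1 (Prx1-cre;Bap1fl/fl), so the floxed allele was common to both groups. Age, culture and pooling of animals are not given in the sources used here. Nothing in the labels says whether the replicates were separate animals, so p-values measure the spread between these samples, which may be technical. WT and cKO mean the libraries so labelled, and per-library values are given in the order of replicates 1, 2 and 3.

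Type I interferon binds a receptor of IFNAR1 and IFNAR2, whose kinases JAK1 and TYK2 activate STAT2 and other factors. Together with IRF9 these form a complex that binds the interferon-stimulated response element and turns on antiviral genes, while IRF3 and IRF7 induce interferon itself when RIG-I (Ddx58), MDA5 (Ifih1) or other sensors detect foreign nucleic acid. Many stromal cells keep a low level of this program running without infection.

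Values are RPKM, read numbers scaled to the length of the gene and the size of the library. Column totals ran from 678450.39 to 700082.31 RPKM. Depth estimated from the steps between low values was 13 to 22.2 megafragments, so that 3 fragments per effective kilobase were worth 0.135 to 0.231 RPKM, a floor for counting error only. Bap1 measured 22.80, 22.72 and 24.01 RPKM in WT, against 28.27, 25.16 and 22.99 in cKO (log2 difference 0.13 ± 0.10 SE, limma adjusted p = 0.290). An RPKM over the whole gene counts transcripts with and without the floxed part, so it does not check the deletion. The groups lay far apart: 61.2% of the 12223 genes tested were called, 34.7% higher and 26.5% lower in the cKO libraries. The summed level of 12 mesenchymal stromal markers was 2435 to 2590 RPKM in WT and 160 to 268 in the cKO libraries, and that of 12 epithelial markers was 15.8 to 17.2 and 132 to 250, nearly all of the latter from Pax8. Within the mesenchymal list Pdgfra was wholly higher in cKO, at 9.72 to 19.56 RPKM against 6.86 to 8.31 in WT, and Prrx1 and Nt5e overlapped. In the epithelial list Pax8, Epcam and Esrp1 were wholly higher in cKO, with Epcam at most 0.29 RPKM and Esrp1 at most 0.43. Krt19 and Krt8 were wholly lower, Krt19 at 1.67, 1.74 and 5.79 RPKM in cKO against 13.28, 11.73 and 13.73 in WT. Cldn3, Cldn4 and Grhl2 were at 0 throughout. The 8 haematopoietic markers summed to 70.0 to 73.3 RPKM in WT and 0.64 to 1.64 in cKO. Of these, Cd52, Laptm5, Tyrobp and Vav1 were at 0 in all libraries and Ptprc reached at most 0.03. Fcer1g made up nearly all of the WT sum and, at 1.12, 1.03 and 0.37 RPKM, most of the cKO sum. Coro1a was wholly higher in cKO, at 0.22 to 0.52 RPKM against at most 0.19 in WT. Spi1 overlapped and reached at most 0.16. The 8 smooth muscle markers summed to 2764 to 3097 RPKM in WT and to 167, 300 and 3213 in cKO, so that cKO replicate 3 stood apart from the other cKO libraries. The part of these marker differences in the results below was not tested. In bulk RNA, fewer cells of a type cannot be told apart from less RNA per cell.

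The interferon genes split rather than moving one way. With a mean of at least 1 RPKM, 18 of the 36 genes could be tested, and 7 were higher, 9 lower and 2 not called in the cKO libraries (limma on log2(RPKM + 1), Benjamini-Hochberg adjusted p under 0.05 over all genes tested). Among all genes tested 34.7% were higher and 26.5% lower. The cKO values lay wholly above the WT values in the same 7 genes and wholly below in the same 9, against 39.2% and 29.8% of all genes tested. The median log2 difference of the 18 was -0.15, against 0.09 for all genes tested. Ifih1, Ifit2, Isg15, Trim25 and Xaf1 passed the minimum through the WT libraries alone and so had to be lower, which is why the counts are a description and not a result about the set. Ifnar1, Ifnar2, Irf1, Ifih1, Ifit2, Ifitm3, Isg15, Trim25 and Xaf1 were lower, and Irf3, Irf9, Ddx58, Ifitm2, Ifi35, Parp9 and Dtx3l were higher, of which Ifitm2 was lower once each chromosome was centred on its median.

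Expression of the interferons themselves was almost nil. Of 10 interferon genes listed, 9 were at 0 in all 6 libraries: Ifna1, Ifna2, Ifna4, Ifna5, Ifne, Ifnk, Ifnl2, Ifnl3 and Ifng. The exception was Ifnb1, which encodes interferon beta, at 0.27 RPKM in WT replicate 2 and at 0 in the other libraries. In a table of RPKM an entry of 0 limits the level only to the depth of the library.

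Both receptor chains were lower in the cKO libraries. Ifnar1 (chromosome 16, 91485238 to 91507441, GRCm38) measured 14.25, 15.81 and 14.22 RPKM in WT, against 9.12, 10.56 and 9.58 in cKO. Every cKO value lay below every WT value, and the mean fell 1.51-fold (log2 difference -0.55 ± 0.10 SE, limma adjusted p = 0.00280). Ifnar2, the chain that binds interferon with high affinity, measured 24.48, 25.59 and 25.69 RPKM in WT, against 7.90, 12.53 and 9.38 in cKO. Its groups did not overlap either, and the fall was 2.54-fold (log2 difference -1.28 ± 0.16 SE, adjusted p = 0.000587). The 2 genes lie 79648 bp apart on chromosome 16, with Il10rb between them. Tested genes of that chromosome had a median log2 difference of -0.22.

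The receptor-associated kinases, both from the list of other pathway genes, went opposite ways. Jak1 fell 1.87-fold, from 60.3 ± 0.325 RPKM in WT to 32.2 ± 0.932 in cKO (here and below mean ± SD of n = 3 libraries). Tyk2 rose 1.40-fold, from 6.32 ± 0.609 to 8.85 ± 1.27 RPKM with an adjusted p of 0.0316. That call was lost with TMM, quantile or median-of-ratios scaling (adjusted p = 0.0689, 0.0630 and 0.0699), with no minimum level (0.0601), with each chromosome centred (0.628), and without any one of WT replicates 1, 2 and 3 or cKO replicates 1 and 2 (0.0634 to 0.114). The receptor chains of interferon gamma, Ifngr1 and Ifngr2, fell 3.45-fold and 2.68-fold, to 17.4 ± 5.32 and 7.11 ± 1.79 RPKM.

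Of the transcription factor complex, Irf9 was called and Stat2 was not. Stat2 measured 6.22, 8.47 and 8.57 RPKM in WT, against 10.14, 10.80 and 7.40 in cKO. These ranges overlap, and the log2 difference of 0.25 had a 95% interval of -0.18 to 0.68. Irf9, the DNA-binding subunit, measured 5.65, 5.83 and 6.21 RPKM in WT, against 7.88, 8.58 and 7.34 in cKO. It rose 1.35-fold (limma adjusted p = 0.0182), a call that was lost without WT replicate 1, WT replicate 2 or cKO replicate 2 (0.0726, 0.0594 and 0.0501).

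Among the interferon regulatory factors, Irf3 and Irf1 lay on opposite sides. Irf3, the constitutive factor that starts interferon transcription, measured 26.49, 26.81 and 30.12 RPKM in WT. It reached 62.68, 64.65 and 63.17 RPKM in cKO, where the values lay within 1.03-fold of each other. The rise was 2.28-fold (log2 difference 1.17 ± 0.08 SE, adjusted p = 5.16e-05). Irf3 lies on chromosome 7, whose tested genes had a median log2 difference of 0.64, and 0.52 of its difference remained above that median. It shares 88 exonic bp with Bcl2l12 on the opposite strand, and the strand setting of the counting is not given in the sources used here. Irf1, an early interferon-gamma target, measured 22.23, 18.74 and 19.88 RPKM in WT, against 10.20, 10.17 and 14.57 in cKO. It fell 1.74-fold (adjusted p = 0.00508) although its chromosome 11 had a median of 0.42. Irf7, which amplifies the response, was too low to test, at 0.96, 1.20 and 0.45 RPKM in WT and 1.42, 0.98 and 0.77 in the cKO libraries, and these ranges overlap.

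The cytosolic RNA sensors diverged as well. Ddx58, which encodes RIG-I, measured 6.80, 6.49 and 6.99 RPKM in WT, against 17.16, 10.32 and 12.57 in cKO. The groups did not overlap and the rise was 1.97-fold (log2 difference 0.86 ± 0.18 SE, adjusted p = 0.00553). Chromosome 4, where it lies, had a median of 0.44, and with each chromosome centred the adjusted p of Ddx58 was 0.0863. Ifih1, which encodes MDA5, fell instead, from 3.38, 3.60 and 3.07 RPKM in WT to 0.38, 0.18 and 0.39 in the cKO libraries. Its log2 difference was -1.73 ± 0.14 SE (adjusted p = 0.000124), and no fold is given because cKO replicate 2 lay under its floor of 3 fragments per effective kilobase. Zbp1, a sensor of Z-form nucleic acid, was too low to test. It measured 0.24, 0.29 and 0 RPKM in WT, against 0.41, 1.20 and 0.39 in cKO, which do not overlap.

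**Figure D1:**
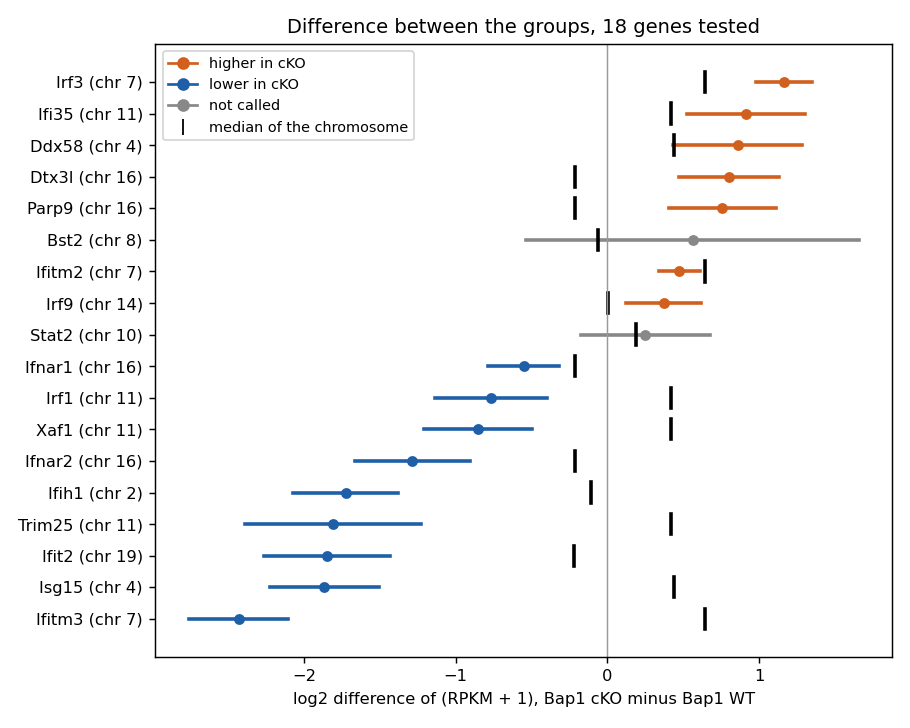
Log2 difference of (RPKM + 1) between cKO and WT libraries for the 18 genes tested, as points with 95% intervals, and the median difference of all tested genes on the same chromosome as black ticks. Ifitm2 lies below the median of chromosome 7 although it is higher than in WT, and Ifitm3 on the same chromosome lies at -2.43.

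The Ifit genes encode proteins that bind viral RNA and block its translation. In each of the 4 all cKO values lay below all WT values, as in 21.1% of all genes above 0 in any library, tested or not. The 4 Ifit genes lie in a cluster on chromosome 19, whose median log2 difference was -0.22 (Ifit2 to Ifit1 span 99316 bp). Ifit2, the only member above the minimum, fell from 4.24, 5.07 and 3.94 RPKM in WT to 0.63, 0.24 and 0.66 in the cKO libraries. This was 8.66-fold (log2 difference -1.85 ± 0.17 SE, adjusted p = 0.000194). Ifit3 measured 1.20, 1.19 and 1.42 RPKM in WT, against 0.37, 0.34 and 0.22 in cKO, and Ifit1 measured 0.35, 1.07 and 0.52 against 0.15, 0.05 and 0.09. With the minimum lowered to a mean of 0.1 RPKM, both were called lower (adjusted p = 0.00119 and 0.0294). Ifit3b, at 0.15, 0.44 and 0.11 RPKM in WT against 0.09, 0.05 and 0.05, was not called (0.197). All 3 cKO values of Ifit1 and of Ifit3b, and 2 WT values of Ifit3b, lay under the floor of 3 fragments per effective kilobase. Ifit3 and Ifit3b share 31.7% of the 100-base stretches of the longest Ifit3 transcript, so the split of reads between them is uncertain.

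The membrane proteins of the Ifitm family, which block the entry of enveloped viruses, gave by far the highest levels, and the balance between Ifitm2 and Ifitm3 shifted. Ifitm3 measured 378.36, 386.22 and 396.33 RPKM in WT, against 56.62, 79.07 and 79.61 in cKO. It fell 5.39-fold (log2 difference -2.43 ± 0.14 SE, adjusted p = 2.79e-05), the largest log2 difference among the 18 genes tested. Ifitm2 measured 276.36, 268.80 and 283.76 RPKM in WT, against 371.39, 388.63 and 393.82 in cKO. That is a 1.39-fold rise (log2 difference 0.48 ± 0.06 SE, adjusted p = 0.000534) which turned into a call in the lower direction, at -0.17 with an adjusted p of 0.0446, once chromosome 7 was centred on its median of 0.64. The ratio of Ifitm3 to Ifitm2 was thus 1.37, 1.44 and 1.40 in WT but 0.152, 0.203 and 0.202 in the cKO libraries. The 2 genes lie 53598 bp apart, on either side of Ifitm1, whose highest value was 0.58 RPKM. The longest transcripts of Ifitm2 and Ifitm3 share no stretch of 100 bases. Ifitm2 shares 34.9% of such stretches with a readthrough gene and with processed pseudogenes, which themselves reached at most 1.6 RPKM. Together Ifitm2 and Ifitm3 made up 80.4 to 80.9% of the summed RPKM of the 36 genes in WT and 67.9 to 74.2% in the cKO libraries.

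Bst2 (tetherin), which holds budding virions at the cell surface, spread widely within the cKO group. It measured 10.63, 9.19 and 8.66 RPKM in WT, against 31.50, 12.49 and 7.42 in cKO. The highest cKO value was 4.25 times the lowest and the groups overlapped. The log2 difference was 0.56 with a 95% interval of -0.53 to 1.66, and the ratio of means, 1.81, was 1.05 without cKO replicate 1. Rsad2 (viperin), among the most strongly induced genes of a full interferon response, lay at 0 to 0.04 RPKM in every library.

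Isg15, a ubiquitin-like protein that is attached to other proteins during the response, was listed at 0 in all 3 cKO libraries, after 2.27, 2.68 and 3.02 RPKM in WT (log2 difference on the RPKM + 1 scale -1.87 ± 0.15 SE, adjusted p = 0.000106). None of 15 housekeeping genes checked was at 0 in any library, which cannot say whether a gene as low as Isg15 would be missed. Isg15 lies on chromosome 4 like Ddx58, which rose. The activating and conjugating enzymes of ISG15, Uba7 and Ube2l6, were looked up after the values were seen. Uba7, tested through its WT level alone, fell 7.58-fold to 0.633 ± 0.311 RPKM and Ube2l6 fell 4.36-fold from 8.09 ± 1.15 to 1.86 ± 0.107 RPKM. The ligase gene Herc6, chosen in the same way, measured 3.14, 2.49 and 2.84 RPKM in WT, against 4.36, 4.22 and 3.85 in cKO. It rose 1.47-fold (adjusted p = 0.0204), and the call was lost without WT replicate 2 or 3 or cKO replicate 1 (0.0662, 0.0594 and 0.0546) and with no minimum level (0.0580).

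Trim25, a ubiquitin ligase that acts on RIG-I and can also attach ISG15, fell from 4.93, 5.03 and 5.16 RPKM in WT to 1.31, 0.21 and 0.83 in the cKO libraries. The cKO values differed 6.24-fold among themselves but all lay under the WT values (log2 difference -1.81 ± 0.24 SE, adjusted p = 0.000857). Usp18, which removes ISG15 and dampens the receptor, was near the floor in both groups, at 0.05 to 0.21 RPKM in WT and 0.09 to 0.13 in the cKO libraries. The modifier gene and those of its activating and conjugating enzymes were called lower, and Herc6 higher. Isg15, Trim25 and Uba7 were tested through their WT levels alone, so their calls could only be lower. Uba7, Ube2l6 and Herc6 were picked after their values were seen, so these calls are a description and no result about ISG15 conjugation.

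**Figure D2:**
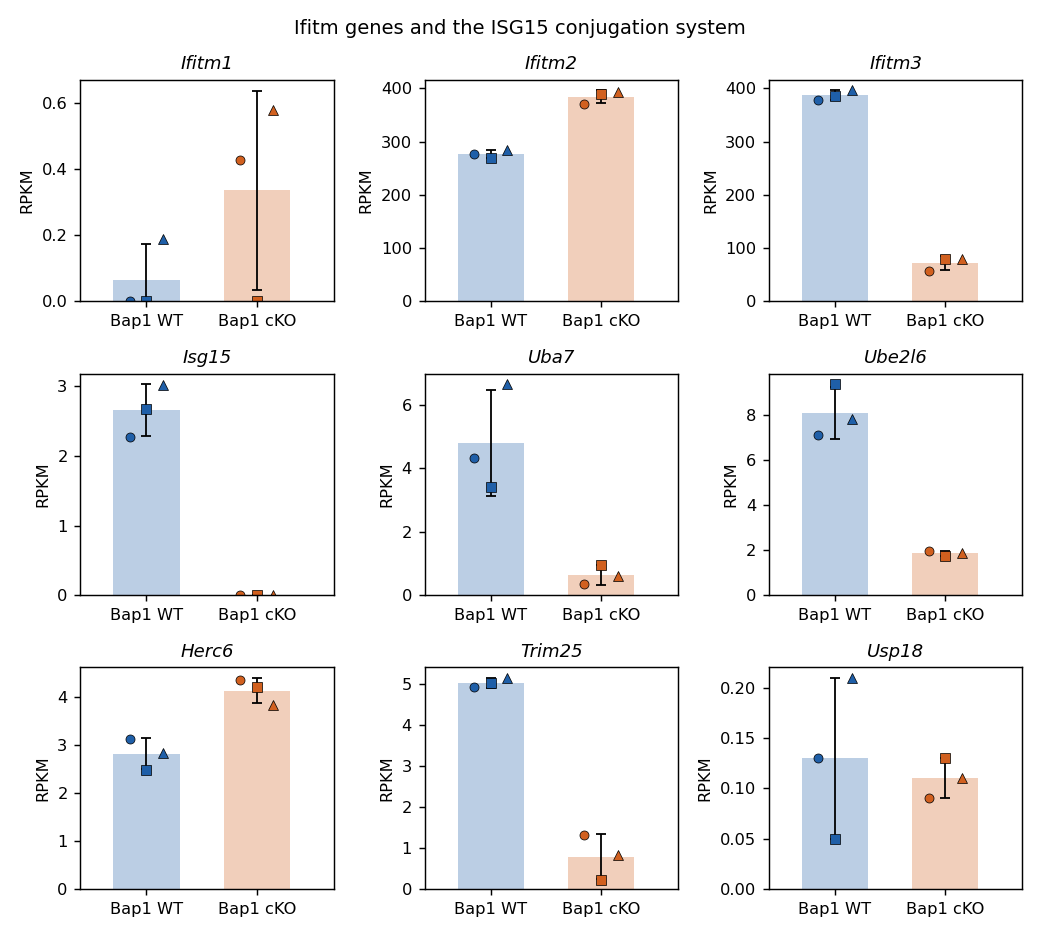
RPKM of the 3 Ifitm genes and of 6 genes of ISG15 conjugation and removal in WT and cKO libraries. Bars are means, lines the SD of 3 libraries, and circles, squares and triangles replicates 1, 2 and 3. Ifitm2 is higher in the cKO libraries (lower once each chromosome is centred) and Ifitm3 lower, while Isg15 is at 0 there and Uba7 and Ube2l6 are lower.

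Parp9 and its partner Dtx3l, a ubiquitin ligase complex of the DNA damage and interferon responses, rose together. Parp9 measured 3.11, 3.57 and 3.27 RPKM in WT, against 6.19, 7.64 and 5.26 in cKO, a 1.92-fold rise (adjusted p = 0.00425). Dtx3l measured 1.18, 1.32 and 1.23 RPKM in WT, against 3.26, 3.07 and 2.47 in cKO, a 2.36-fold rise (adjusted p = 0.00252). The genes lie head to head on chromosome 16 and share 458 exonic bp on opposite strands, so without a known strand setting part of their reads cannot be assigned. Their log2 differences, 0.76 and 0.81, stand against a chromosome median of -0.22. Parp14, which lies close by on the same chromosome, went the other way. It measured 0.88, 1.09 and 0.97 RPKM in WT, against 0.62, 0.55 and 0.42 in cKO, under the minimum for the test, and was called lower with a minimum of 0.1 RPKM (adjusted p = 0.0268).

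Ifi35 and Xaf1, both on chromosome 11 with a median log2 difference of 0.42, lay on opposite sides. Ifi35, an interferon-induced leucine zipper protein, measured 13.03, 12.10 and 12.02 RPKM in WT, against 27.89, 27.37 and 18.62 in cKO. It rose 1.99-fold (adjusted p = 0.00290). Xaf1, which antagonises the inhibitor of apoptosis XIAP, fell 2.96-fold from 2.16, 2.40 and 1.72 RPKM to 0.70, 0.67 and 0.75 (adjusted p = 0.00266). Ifi44 was too low to test, at 0.09, 0.13 and 0.47 RPKM in WT and 0, 0 and 0.02 in the cKO libraries.

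The classical antiviral enzymes were nearly silent in both groups. Oas1a, Oas2 and Oas3, which make a second messenger when they bind double-stranded RNA, did not exceed 0.17 RPKM, and Mx1 and Mx2, dynamin-like antiviral GTPases, did not exceed 0.20. Oas1a, Oas2, Oas3, Mx1 and also Rsad2 were under the floor of 3 fragments per effective kilobase in all 6 libraries. Oasl2 was higher than these in WT, at 0.52, 0.87 and 0.46 RPKM in WT and at 0.04, 0 and 0.05 in the cKO libraries (adjusted p = 0.00455 with a minimum of 0.1 RPKM). The guanylate-binding proteins Gbp2 and Gbp3, which attack pathogen vacuoles, overlapped between the groups, at 0.47 to 0.80 and 0.18 to 0.69 RPKM in WT and at 0.49 to 1.12 and 0.03 to 0.26 in the cKO libraries. Of the 18 genes under the minimum, 6 lay wholly lower and 1 wholly higher in the cKO libraries and 11 overlapped. Among all genes above 0 in any library, 21.1% lay wholly lower and 27.3% wholly higher. Those shares include the genes above the minimum, so they are not the shares of genes under it. With the minimum at 0.1 RPKM, 30 of the 36 genes were tested and 7 were higher and 13 lower, against 29.1% and 22.8% of all genes tested that way.

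The cKO libraries were less alike than the WT libraries in these genes, as in others. The median SD on the log2(RPKM + 1) scale over the 18 genes tested was 0.08 in the WT and 0.23 in the cKO libraries, and over all genes tested 0.09 and 0.19. Among the 16 genes called, cKO replicate 3 lay closest to the WT mean in 9, which is 56.3%, against 54.7% of all genes called. Without cKO replicate 3 the counts were again 7 higher and 9 lower.

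Sequences upstream of the start site are shown for the called members that hold the core of the response element. Also shown are Ifitm3, which lies near Ifitm2 and had the larger difference, and the 3 Ifit genes that hold that core. In these 3 Ifit genes all cKO values lay below the WT values, as they did in Ifit2, which is not shown and holds no match. The 6 shown were chosen after their values were seen. They are the 200 bases before the RefSeq start (GRCm38.p6), written 5′ to 3′ on the gene's strand. Capitals mark GAAA repeated after any 2 bases, or TTTC repeated in the same way where the motif lies on the other strand, and overlapping matches run together. The regions are chr4:156200819-156201018 (Isg15, minus strand), chr7:140955962-140956161 (Ifitm2, minus), chr7:141010745-141010944 (Ifitm3, minus), chr19:34640689-34640888 (Ifit1, plus), chr19:34583329-34583528 (Ifit3, plus) and chr19:34607757-34607956 (Ifit3b, plus).
Isg15: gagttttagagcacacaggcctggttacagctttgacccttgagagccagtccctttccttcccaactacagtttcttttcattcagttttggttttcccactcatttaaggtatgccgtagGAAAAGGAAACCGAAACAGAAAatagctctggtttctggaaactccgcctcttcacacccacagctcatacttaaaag
Ifitm2: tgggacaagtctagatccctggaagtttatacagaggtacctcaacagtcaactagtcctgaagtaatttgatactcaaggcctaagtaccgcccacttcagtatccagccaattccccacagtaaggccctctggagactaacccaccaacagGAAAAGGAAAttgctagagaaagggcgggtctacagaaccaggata
Ifitm3: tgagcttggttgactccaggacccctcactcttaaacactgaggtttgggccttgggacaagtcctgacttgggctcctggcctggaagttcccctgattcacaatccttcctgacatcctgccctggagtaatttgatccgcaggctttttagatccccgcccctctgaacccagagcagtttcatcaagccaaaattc
Ifit1: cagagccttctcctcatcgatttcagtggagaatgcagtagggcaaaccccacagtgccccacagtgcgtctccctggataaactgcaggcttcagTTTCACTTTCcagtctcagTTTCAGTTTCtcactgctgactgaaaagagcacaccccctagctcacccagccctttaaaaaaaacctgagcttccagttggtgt
Ifit3: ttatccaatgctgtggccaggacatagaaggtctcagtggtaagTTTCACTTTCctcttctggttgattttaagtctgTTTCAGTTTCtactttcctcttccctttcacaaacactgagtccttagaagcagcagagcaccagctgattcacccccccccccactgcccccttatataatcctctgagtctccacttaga
Ifit3b: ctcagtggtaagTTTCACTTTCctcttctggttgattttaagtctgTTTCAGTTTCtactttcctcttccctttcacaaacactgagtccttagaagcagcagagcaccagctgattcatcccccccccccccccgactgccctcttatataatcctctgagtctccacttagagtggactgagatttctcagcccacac

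Isg15 holds 3 overlapping matches between 78 and 57 bases before its start, and Ifitm2 holds 1 between 46 and 37 bases. No match lies in the 250 bases before Ifitm3, which says only that these letters are not in this window. Ifit1, Ifit3 and Ifit3b hold 2 each, whereas Ifit2, which was called lower, holds none in its 250 bases. The upstream sequences of Ifit3 and Ifit3b are 86.2% identical over 218 bases when shifted by 32 bases. The motif was searched on both strands in the 250 bases before each start. It lay before 12 of the 29 members with a promoter in the RefSeq table, among them 1 of 6 called higher, 1 of 9 called lower, both that were tested without a call (Stat2 and Bst2), and 8 of 12 that were too low to test. The motif lay in 2.98% of all 32851 promoters listed. Isg15 and Ifitm2 carry the same GAAAAGGAAA and had log2 differences of -1.87 and 0.48 (-0.17 for Ifitm2 with each chromosome centred).

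Of 110 other genes of interferon production, signalling and response, 62 were tested, of which 28 were lower, 13 higher and 21 not called, and 48 were too low. All genes tested gave 26.5% lower and 34.7% higher. The median log2 difference of the 62 was -0.35, against 0.09 over all genes tested. The minimum was passed through WT alone by 10 genes, among them Irf5, Mb21d1, Ifi204, Uba7, Slfn2, Sp100, Lgals9 and Apobec3. It was passed through cKO alone by 4, Irf8, Ifi205, Trim21 and Ifi27l2a. A call of these 14 genes could go only one way, so the counts describe the list and support no direction. With each chromosome centred, 33 were lower and 7 higher.

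**Figure D3:**
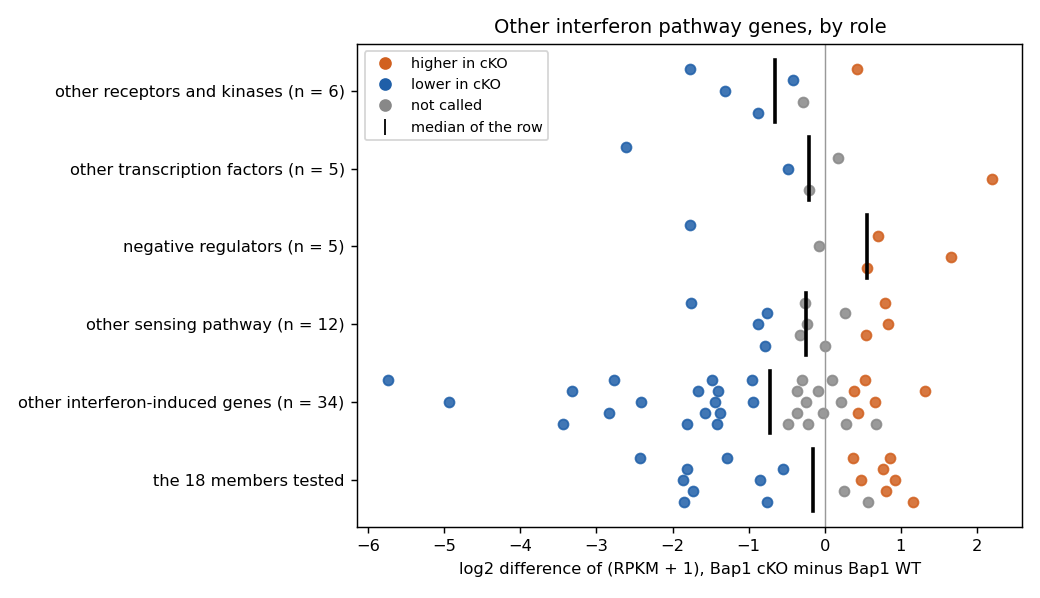
Log2 difference of (RPKM + 1) between cKO and WT libraries for 62 other interferon pathway genes by role, with the 18 members tested in the bottom row. Each point is a gene, coloured by its call, and the black tick is the median of its row. The interferon-induced genes reach from -5.75 (Lgals9) to 1.31 (Ifi205).

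Among receptors and kinases, 4 of 6 tested genes were lower and 1 higher. Of 5 other transcription factors 2 were lower and 1 higher. Of all genes tested, 26.5% were lower and 34.7% higher. Irf5, a factor downstream of Toll-like receptors, had means of 8.09 ± 0.527 RPKM in WT and 0.517 ± 0.396 in cKO. That is a 15.7-fold fall, or 27.9-fold if cKO replicate 3 is left out. Irf8, a factor best known from myeloid and B cells, was listed at 0 throughout WT and reached 3.72, 4.49 and 2.74 RPKM in cKO, through which alone it entered the test. The 8 macrophage markers summed to 3.3 to 4.19 RPKM in WT and 5.82 to 7.97 in cKO, with Cd68 wholly higher, Lyz2 and Mrc1 wholly lower and Adgre1, C1qa and C1qb at 0 in all libraries, and the part of this in the Irf8 level was not tested. The plasmacytoid dendritic cell gene Siglech was at 0 in all 6 libraries. The 8 markers of that cell type share Bst2, Irf7, Irf8, Tlr7 and Tlr9 with the interferon genes. Their summed level was 9.24 to 11.8 RPKM in WT and 11.0 to 36.7 in the cKO libraries. Bst2 made up most of that sum in every library, at 31.5 RPKM in cKO replicate 1, and Irf8 most of the rest in cKO. Cd300c was at 0 in all libraries and Ly6c2 reached at most 0.21 RPKM.

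In the sensing pathways, 4 of 12 tested genes were lower and 3 higher, beside 26.5% and 34.7% of all genes tested. Tmem173, which encodes STING, fell 4.5-fold from 8.77 ± 1.14 to 1.95 ± 0.830 RPKM. Its activator cGAS (Mb21d1, named Cgas in the annotation) measured 1.01, 1.91 and 1.72 RPKM in WT, against 0.32, 0.54 and 0.52 in cKO. The means differed 3.36-fold, and it was tested through its WT level alone. Tbk1, the kinase that activates IRF3, rose 1.76-fold from 24.8 ± 0.506 to 43.8 ± 2.79 RPKM, and its adaptor Azi2 rose 1.82-fold to 27.4 ± 1.28 RPKM. Mavs, the adaptor of RIG-I and MDA5, stood at 17.9 ± 0.142 and 14.9 ± 1.92 RPKM and was not called (adjusted p = 0.0778), although it was with TMM, quantile or median-of-ratios scaling (0.0257, 0.0175 and 0.0264) and without cKO replicate 2 (0.0327).

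Of 5 negative regulators tested, 3 were higher and 1, Samhd1, lower, beside 34.7% and 26.5% of all genes tested. Socs3, a feedback inhibitor of JAK signalling, rose 3.47-fold from 7.96 ± 0.749 to 27.6 ± 6.81 RPKM. Its relative Socs1, the main brake on interferon receptors, was under the minimum, at 1.04, 1.10 and 1.41 RPKM in WT and 0.45, 0.47 and 0.64 in the cKO libraries. With a minimum of 0.1 RPKM Socs1 was called lower (limma adjusted p = 0.0108). Pias1, a SUMO ligase that inhibits STAT factors, and Trex1, a nuclease that removes cytosolic DNA, rose 1.69-fold and 1.51-fold. Both lie on chromosome 9, with a median of 0.34, and lost their calls with each chromosome centred (adjusted p = 0.0832 and 0.114).

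Of 34 other interferon-induced genes tested, 17 were lower and 5 higher, beside 26.5% and 34.7% of all genes tested. Among the 34, 8 entered the test through WT alone and 3 through cKO alone. The largest fall was that of Lgals9, which encodes galectin-9, 124-fold from 91.7 ± 1.5 to 0.740 ± 0.246 RPKM. Lgals3bp, a galectin-binding secreted protein, fell 12.1-fold from 84.2 ± 7.80 to 6.94 ± 1.40 RPKM. Slfn2, a Schlafen family gene, stood at 8.79, 9.51 and 8.63 RPKM in WT and was listed at 0 in all 3 cKO libraries. Sp100, a protein of nuclear bodies, fell from 7.47 ± 0.715 RPKM to 0, 0.50 and 0.11, and Apobec3, a cytidine deaminase that restricts retroviruses, from 6.30 ± 0.980 RPKM to 0, 0.16 and 0.05. Trim21, a cytosolic antibody receptor, was higher, at 0.99, 1.01 and 0.90 RPKM in WT and 2.89, 1.65 and 1.93 in the cKO libraries (adjusted p = 0.0172, tested through its cKO level alone). That call was lost without WT replicate 3 (0.0515) and with each chromosome centred (0.934). Adar, the RNA editing enzyme, rose 1.35-fold to 9.74 ± 0.607 RPKM (adjusted p = 0.0211). Its call was lost without WT replicate 1, WT replicate 3 or cKO replicate 1 (0.0845, 0.0812 and 0.0585), under TMM and median-of-ratios scaling (0.0536 and 0.0546) and with each chromosome centred (0.0574). Eif2ak2, which encodes the kinase PKR, stood at 14.7 ± 1.40 and 12.2 ± 0.726 RPKM and was not called (0.0730). It was called lower with TMM, quantile or median-of-ratios scaling and with each chromosome centred (0.0161 to 0.0203).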

How the data were processed

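PolyA RNA of 6 libraries was read as 151 bp pairs, per the labels. The authors deposited RPKM values with 2 decimals in 1 column per library. Tools in the submitters' processing notes are RSEM 1.3.1, STAR 2.7.1a and cutadapt 2.8, with build GRCm38, and the annotation is not given in the sources used here. Symbols and coordinates came from GENCODE M21 (GRCm38), which matched 55230 of the 55471 identifiers.

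The members and lists were chosen with earlier results of these data known. The log2(RPKM + 1) values of every gene whose mean reached 1 RPKM entered a 2-sided limma test (version 3.58.1, R 4.3.3) with genotype as sole term and a mean-dependent variance prior. P-values were Benjamini-Hochberg adjusted over these genes. The fit was tested on simulated data. Depth came from the steps of low values of genes of 800 to 3500 bp less 150 bp: 81.8 to 92.7% of 269 to 291 values per library lay within 0.2 of a whole fragment (chance 40%). Folds are ratios of mean RPKM, left out where a library of the lower group was under its floor. All 36 members are named, and of the other pathway genes the 8 with the largest change per direction among those called without overlap plus 11 set signalling genes, and a few genes are not reported here. Alternatives were pseudocounts, minimum levels, scalings (TMM, median of ratios, quantile, equal totals), variance priors, sample weights, the replicate block, chromosome centring, a fold threshold and leaving out each library. Python 3.11.15 with pandas 2.3.3 and matplotlib 3.10.9 made the summaries.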

Additional observations from a re-analysis of the deposited data

How the results depend on the processing

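Of the 16 members called, 13 kept direction and call in each alternative that tested them, the log2 threshold of 1 set aside, which left 1 higher and 6 lower. The exceptions were Irf9, Ddx58 and Ifitm2. Ifitm2 had a log2 difference of -0.17 with each chromosome centred, and Irf9 also missed the threshold with the replicate block (limma adjusted p = 0.0638). With a minimum mean of 5 RPKM, 11 members were tested and 4 were lower. For the other pathway genes, 8 were higher and 18 lower with a minimum mean of 5 RPKM, where 41 were tested, 7 were higher with each chromosome centred, and 3 were higher with the log2 threshold of 1. That threshold left 1632 genes higher and 1499 lower among all genes tested. Leaving out each library in turn gave 6 to 7 members higher and 9 lower, 9 to 15 other pathway genes higher and 26 to 30 lower, and 3475 to 4517 genes higher and 2695 to 3588 lower in all. The replicate numbers did not pair the libraries: deviations of libraries with the same number correlated at -0.02, 0.05 and -0.02 across genes, and WT and cKO replicate 2 alone correlated best with each other. With the replicate block in the fit, 6 members were higher and 9 lower, 10 other pathway genes were higher and 28 lower, and 3811 genes were higher and 2938 lower in all. Tyk2, Herc6 and Adar lost their calls with it (adjusted p = 0.0758, 0.0589 and 0.0651). Levels under 0.135 to 0.231 RPKM rest on fewer than 3 fragments per effective kilobase, and calls there rest on few reads. Other pathway genes called lower numbered 31 with a minimum of 0.1 RPKM and 34 with none.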

Other observations

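Values of 2 further gene families, chosen after they were seen, are given here. In the Ifi200 family on chromosome 1, which encodes DNA-binding proteins, Ifi204 was 97.6-fold lower in cKO, at 0.440 ± 0.201 RPKM against 42.9 ± 1.04 in WT, and Ifi211 was 5.80-fold lower, at 5.88 ± 2.67 against 34.1 ± 1.41 (mean ± SD of n = 3). Nearby, Ifi205 was higher, at 0.19, 0.28 and 0.19 RPKM in WT against 2.10, 3.63 and 0.94 in cKO. It entered the test through cKO alone. Ifi203, too low to test and chosen after its values were seen, stood at 0.58, 0.65 and 0.36 RPKM in WT against 1.0, 1.19 and 0.68 in cKO. Mndal, of the same family and likewise chosen, overlapped, at 4.64, 4.83 and 2.57 RPKM in WT against 3.16, 4.42 and 1.43 in cKO. It was not called (limma adjusted p = 0.378). Ifi207 and Ifi209 were under the floor of 3 fragments per effective kilobase in every library. The genes of this family are similar in sequence, so the split of reads between them is uncertain.

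Among the Schlafen genes of chromosome 11, Slfn2 was at 0 in every cKO library. Slfn8 was too low to test, at 0.49, 0.42 and 0.36 RPKM in WT against 0.05, 0 and 0.16 in cKO, and was called lower with a minimum mean of 0.1 RPKM (limma adjusted p = 0.0121). Slfn9, also chosen after its values were seen, measured 9.22, 9.0 and 8.26 RPKM in WT against 7.0, 9.17 and 8.58 in cKO and was not called (adjusted p = 0.532). Samhd1, chosen in the same way, a dNTP hydrolase that restricts retroviruses, had the highest WT mean of the 110 pathway genes and fell 3.36-fold from 136 ± 12.8 to 40.6 ± 14.4 RPKM.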
